A study of Mus musculus with 10 samples.

Results

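The circadian clock genes Per1, Per2, Per3, Dbp, Tef, Nr1d1, Nr1d2, Arntl, Clock and Ciart were examined in RNA sequencing of whole hippocampus. These 10 genes were taken by symbol from the 43629 genes of the count table as known clock genes, with earlier results of these data known, and all 10 had enough reads to be among the 17237 genes tested. The samples came from 10 male mice, labelled as 18 weeks of age and as strain C57BL/6J.129P2, of which 5 were wild-type (WT) and 5 were Dp1Tyb, with 1 library per mouse. Dp1Tyb mice, allele Dp(16Lipi-Zbtb21)1TybEmcf, carry an extra copy of a segment of mouse chromosome 16 in every cell and serve as a model of Down syndrome. None of the 10 genes lies on that chromosome. The line had been backcrossed to C57BL/6J. WT littermates served as controls according to the study's methods, and genes on other mouse chromosomes are not duplicated in this model. The labels did not give the time of day at which tissue was taken, and its part in the differences between mice was not tested.

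The mammalian clock is a transcriptional feedback loop that runs in most cells of the body. ARNTL, also called BMAL1, pairs with CLOCK and activates genes through the E-box, and the PER proteins together with the CRY proteins return to the nucleus and repress that pair. CIART, also called CHRONO, is a further repressor of the pair. A second loop is formed by the nuclear receptors NR1D1 and NR1D2 (REV-ERBα and REV-ERBβ), which repress Arntl through the ROR element. DBP and TEF are PAR bZIP transcription factors that activate genes through the D-box. In tissues with a running clock, Arntl transcripts peak at about the opposite time of day from those of Per3, Dbp and Nr1d1. The hippocampus holds such a local clock, whereas the suprachiasmatic nucleus of the hypothalamus sets the time for the body.

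The promoter sequences are shown for the members whose windows held such elements, since the loop described above acts through them. RefSeq promoter windows on GRCm38.p6, which run from 250 bases before to 50 bases after the transcript start, were found for 9 of the 10 genes in 14 windows. The letters CACGTG (E-box), CACGTT (E-box-like), TTATGTAA or TTACGTAA (D-box), TGACGTCA (CRE) and TAGGTCA (ROR element) were searched on both strands, and no match overlapped another in these windows. Ciart held 3 E-boxes, with first bases 116, 58 and 44 bases before the start, and Per3 held 2 copies of the D-box, with first bases 205 and 158 bases before the start. The 250 bases before each start, on the minus strand, are at chr3:95882229-95882478 for Ciart and chr4:151044666-151044915 for Per3, and capitals mark the E-boxes and D-boxes.
Ciart: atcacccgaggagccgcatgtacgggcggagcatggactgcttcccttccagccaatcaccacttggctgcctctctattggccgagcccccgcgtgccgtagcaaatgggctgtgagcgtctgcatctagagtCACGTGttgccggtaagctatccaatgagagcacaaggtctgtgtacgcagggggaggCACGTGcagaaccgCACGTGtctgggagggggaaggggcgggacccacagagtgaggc
Per3: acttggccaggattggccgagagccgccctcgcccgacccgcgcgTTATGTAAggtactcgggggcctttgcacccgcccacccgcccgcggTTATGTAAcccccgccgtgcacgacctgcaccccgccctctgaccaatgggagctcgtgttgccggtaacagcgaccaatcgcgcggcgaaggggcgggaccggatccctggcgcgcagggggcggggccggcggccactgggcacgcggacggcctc
Per1 held an E-box 166 bases before its start, and Tef held 1 in each of its windows with a match, at 127 and 138 bases before the start. Nr1d1 held an E-box-like match 28 bases before its start on the opposite strand, and Arntl held a ROR element 31 bases after its start. The sites with their flanks, with the match in capitals, are as follows, read along the gene's strand.
Per1 chr11:69098772-69098799: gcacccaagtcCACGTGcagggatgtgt
Tef chr15:81802535-81802562: tgctgtggctcCACGTGctgcagctggc
Tef chr15:81811265-81811292: acctggcccagCACGTGtctacatcgtt
Nr1d1 chr11:98775389-98775416: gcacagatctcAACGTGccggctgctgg
Arntl chr7:113207530-113207558: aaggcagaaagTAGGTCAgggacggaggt
An E-box was thus in the windows of 3 of the 9 genes, against 8.09% of all genes with windows (7.15% of all windows). The share of all genes was 5.44% for the E-box-like letters, 1.23% for the D-box, 2.03% for the CRE and 2.97% for the ROR element, and of all windows 4.68%, 1.06%, 1.79% and 2.61% in the same order. No window of the 9 genes held the CRE, and the windows of Dbp, Clock and Nr1d2 held none of the letters searched. A match is a description of the letters and not a measured binding site.

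Total counts ran from 18227684 to 43692270 per library, and the 10 genes had between 161 and 17143 reads in each library. RPKM values, which scale the counts by library size and by the exon length in GENCODE M21 and were computed here, allow levels of different genes to be set beside each other. Tef was the highest of the 10 at 48.0 ± 1.7 RPKM (SD, n = 10), followed by Nr1d1 at 26.2 ± 3.23, Nr1d2 at 18.0 ± 1.08 and Per1 at 13.3 ± 0.729 RPKM. The ranges over mice of these 4 genes did not overlap. Below them came Dbp at 7.87 ± 1.58, Clock at 6.64 ± 0.412, Per2 at 6.59 ± 0.521, Per3 at 5.74 ± 0.578, Arntl at 5.02 ± 0.439 and Ciart at 4.2 ± 0.546 RPKM. Each of these last 6 overlapped its neighbours in the order, so the order of neighbours was not set beyond the spread between mice. Genes further apart could be separated. The lowest mice in Clock (6.09 RPKM) and Per2 (5.62 RPKM) were above the highest in Arntl (5.54 RPKM) and Ciart (5.44 RPKM). Tef stood at the 95.3rd percentile of all tested genes by RPKM and Ciart at the 50.5th percentile.

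The comparison of WT with Dp1Tyb mice asked whether clock gene expression in the hippocampus differed with the duplication. No member passed the test: 0 of 10 had an adjusted p under 0.05 (edgeR quasi-likelihood test, Benjamini-Hochberg over all tested genes), against a background of 1.11% of all tested genes called (0.87% higher and 0.238% lower in Dp1Tyb mice). None had an unadjusted p under 0.05, where the background was 14.4%, and DESeq2 and limma-voom also called 0. In no member were the 5 WT mice separated from the 5 Dp1Tyb mice, whereas 3.68% of all tested genes had groups that did not overlap. The members' median log2 fold change (Dp1Tyb minus WT) was -0.03, beside -0.0041 for all tested genes, and 6 of the 10 lay below 0, beside 51.3% of all tested genes. The 95% intervals of all 10 lay inside a 1.5-fold change in either direction. Differences inside these intervals are not excluded with this number of mice.

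**Figure D1:**
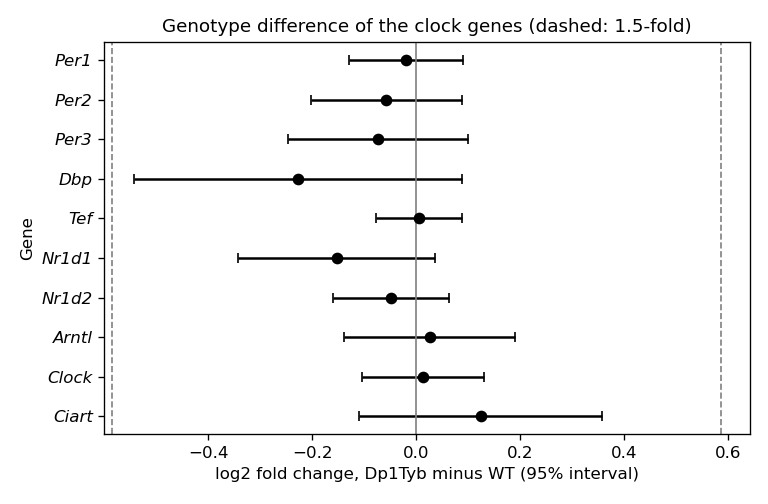
The log2 fold change (Dp1Tyb minus WT, horizontal axis) of each clock gene from the edgeR fit is a point, its 95% interval a bar, and dashed lines mark a 1.5-fold change. Every interval crosses 0 and stays inside the dashed lines, and the interval of Dbp is the widest, from -0.54 to 0.09.

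Arntl and Clock encode the activating pair. Arntl (ENSMUSG00000055116, chromosome 7, 113207465 to 113314126, GRCm38) measured 37.9, 41.6, 40.1, 30.8 and 37.1 CPM (counts scaled to a common library size with TMM factors) in WT mice 1 to 5, and 37.6, 40.5, 39.7, 38.9 and 33.7 CPM in Dp1Tyb mice 1 to 5. WT 4 was the lowest of the 10 mice and Dp1Tyb 5 the next, and the groups overlapped over most of their range. The log2 fold change was 0.03 ± 0.076 (SE; 95% interval -0.14 to 0.19; edgeR adjusted p = 0.907). Clock (ENSMUSG00000029238, chromosome 5, 76209868 to 76304792) measured 83.5, 93.8, 95.2, 93.8 and 87.9 CPM in WT mice 1 to 5, and 86.4, 89.5, 91.8, 103 and 86.9 CPM in Dp1Tyb mice 1 to 5. The means were 90.9 ± 4.95 CPM in WT and 91.6 ± 6.86 CPM in Dp1Tyb mice (SD, n = 5 each). Its log2 fold change was 0.01 ± 0.054 (95% interval -0.11 to 0.13; edgeR adjusted p = 0.94), and Dp1Tyb 4 was the only mouse above the WT range. The sign of neither difference was stable, since both turned negative with choroid plexus markers as a covariate, Arntl also without WT 4 and Clock also without WT 1, without Dp1Tyb 4 and without both Dp1Tyb 1 and Dp1Tyb 4.

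The Per genes and Ciart encode the repressing arm. Per1 (ENSMUSG00000020893, chromosome 11, 69095217 to 69109960) measured 70.6, 76.6, 74.5, 80.2 and 76.3 CPM in WT mice 1 to 5, and 81.6, 68.9, 73.4, 71.7 and 77.6 CPM in Dp1Tyb mice 1 to 5. The lowest and the highest mouse were both Dp1Tyb, and the log2 fold change was -0.02 ± 0.051 (95% interval -0.13 to 0.09; edgeR adjusted p = 0.887). Per2 (ENSMUSG00000055866, chromosome 1, 91415982 to 91459324) measured 38.7, 38.0, 36.1, 40.8 and 43.2 CPM in WT mice 1 to 5, and 37.5, 32.9, 37.7, 38.6 and 42.7 CPM in Dp1Tyb mice 1 to 5. Mouse 5 was the highest in each genotype, and the means of 39.4 ± 2.72 CPM in WT and 37.9 ± 3.48 CPM in Dp1Tyb mice gave a log2 fold change of -0.06 ± 0.067 (95% interval -0.20 to 0.09; edgeR adjusted p = 0.723). Per3 (ENSMUSG00000028957, chromosome 4, 151003652 to 151044665) measured 52.7, 51.9, 54.4, 64.5 and 58.8 CPM in WT mice 1 to 5, and 58.6, 47.1, 53.3, 48.5 and 61.1 CPM in Dp1Tyb mice 1 to 5. WT 4 and Dp1Tyb 5, the pair lowest in Arntl, were the pair highest in Per3. The log2 fold change of Per3 was -0.07 ± 0.080 (95% interval -0.25 to 0.10; edgeR adjusted p = 0.703).

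Ciart (ENSMUSG00000038550, chromosome 3, 95878503 to 95882251) measured 7.68, 9.15, 8.73, 10.5 and 9.47 CPM in WT mice 1 to 5, and 12.3, 9.13, 9.92, 8.97 and 9.17 CPM in Dp1Tyb mice 1 to 5. The Dp1Tyb mean was the higher by a log2 fold change of 0.12 ± 0.11 (95% interval -0.11 to 0.36; edgeR adjusted p = 0.626). Dp1Tyb 1 was above the other 9 mice, and without it the log2 fold change was 0.03. The remaining 4 Dp1Tyb mice lay inside the WT range.

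Nr1d1 and Nr1d2 encode the receptors of the second loop. Nr1d1 (ENSMUSG00000020889, chromosome 11, 98767932 to 98775333) measured 75.2, 84.2, 81.9, 99.95 and 83.5 CPM in WT mice 1 to 5, and 91.1, 78.9, 74.1, 65.1 and 72.5 CPM in Dp1Tyb mice 1 to 5. Here 3 of the Dp1Tyb mice were below the lowest WT mouse, while Dp1Tyb 1 was above 4 of the 5 WT mice. The log2 fold change was -0.15 ± 0.087 (95% interval -0.34 to 0.03; edgeR adjusted p = 0.443). It moved to -0.09 without WT 4, to -0.10 without Dp1Tyb 4 and to -0.23 without Dp1Tyb 1, where the adjusted p was 0.234. Nr1d2 (ENSMUSG00000021775, chromosome 14, 18204054 to 18239127) measured 97.1, 93.7, 103, 106 and 94.7 CPM in WT mice 1 to 5, and 99.1, 92.9, 97.7, 102 and 85.9 CPM in Dp1Tyb mice 1 to 5. The means were 98.9 ± 5.4 CPM in WT and 95.6 ± 6.4 CPM in Dp1Tyb mice, a log2 fold change of -0.05 ± 0.052 (95% interval -0.16 to 0.06; edgeR adjusted p = 0.693). Its lowest mouse was Dp1Tyb 5, which was the next highest to the top mouse in Per2 and Per3, and its highest was WT 4.

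Dbp and Tef encode the PAR bZIP factors. Dbp (ENSMUSG00000059824, chromosome 7, 45705088 to 45710203) measured 19.0, 22.8, 23.0, 30.8 and 31.3 CPM in WT mice 1 to 5, and 23.3, 22.3, 22.9, 15.5 and 24.6 CPM in Dp1Tyb mice 1 to 5. WT 4 and WT 5 were above all other mice and Dp1Tyb 4 was below them, while the remaining 7 mice lay between 19.0 and 24.6 CPM. The log2 fold change was -0.23 ± 0.15 (95% interval -0.54 to 0.09; edgeR adjusted p = 0.50), the largest in size among the 10 genes. It moved to -0.13 without Dp1Tyb 4 and to -0.14 without either WT 4 or WT 5. Tef (ENSMUSG00000022389, chromosome 15, 81802421 to 81826863) measured 370, 369, 364, 403 and 378 CPM in WT mice 1 to 5, and 393, 370, 361, 385 and 382 CPM in Dp1Tyb mice 1 to 5. The log2 fold change of Tef was 0.0052 ± 0.038 (95% interval -0.077 to 0.088; edgeR adjusted p = 0.966). The sign of the differences in Tef and Per1 changed when single mice were left out.

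**Figure D2:**
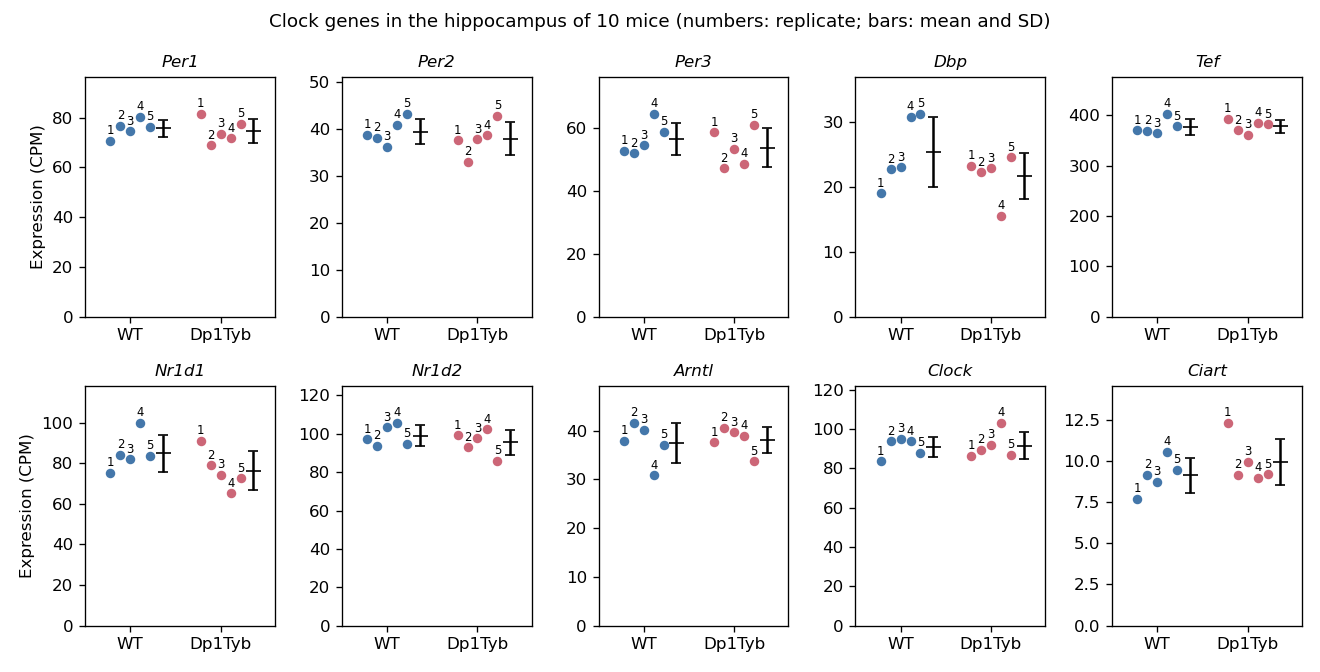
Each panel plots the expression of 1 clock gene in CPM (vertical axis from 0) for the WT and Dp1Tyb mice, with replicate numbers beside the points and the mean with its SD as a bar. The 2 genotypes overlap in each of the 10 panels, with Dbp the most scattered, from 15.5 to 31.3 CPM, and Tef the tightest, from 361 to 403 CPM.

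Some exons are shared with other genes in the annotation. The exons of Dbp overlapped those of Sphk2 on the opposite strand over 539 bases (18% of the Dbp exon length), and those of Nr1d1 overlapped Thra over 263 bases (8.55%). For Tef the overlap with Gm17597 was 193 bases (2.45%) and for Arntl that with Gm45355 was 33 bases (0.439%). The libraries were made with a stranded kit, but the strand setting of the counting is not given in the sources used here, so the reads of these stretches cannot be assigned with certainty. Sphk2, a sphingosine kinase, had a log2 fold change of -0.03 and Thra, a thyroid hormone receptor, of -0.02, and neither was called.

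The spread between mice of the same genotype differed among the 10 genes. The pooled SD on the log2 CPM scale had a median of 0.129 over the members, beside 0.130 over all tested genes, and it ran from 0.053 for Tef to 0.288 for Dbp. The ratio of the highest to the lowest mouse was 2.02 for Dbp, 1.6 for Ciart, 1.54 for Nr1d1, 1.37 for Per3 and 1.35 for Arntl, and 1.12 for Tef. Because the SD falls with the level, each member was also ranked among the genes within a factor of 2 of its own level. In that ranking Dbp stood at the 97.1st percentile, Nr1d1 at 94.2, Per3 at 90.0, Arntl at 84.3 and Per2 at 75.5. Clock stood at 69.0, Ciart at 68.2, Nr1d2 at 66.2 and Per1 at 56.8, whereas Tef stood at 25.2. Dbp varied in both genotypes, with an SD of 0.31 in WT and 0.26 in Dp1Tyb mice on the log2 scale.

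**Figure D3:**
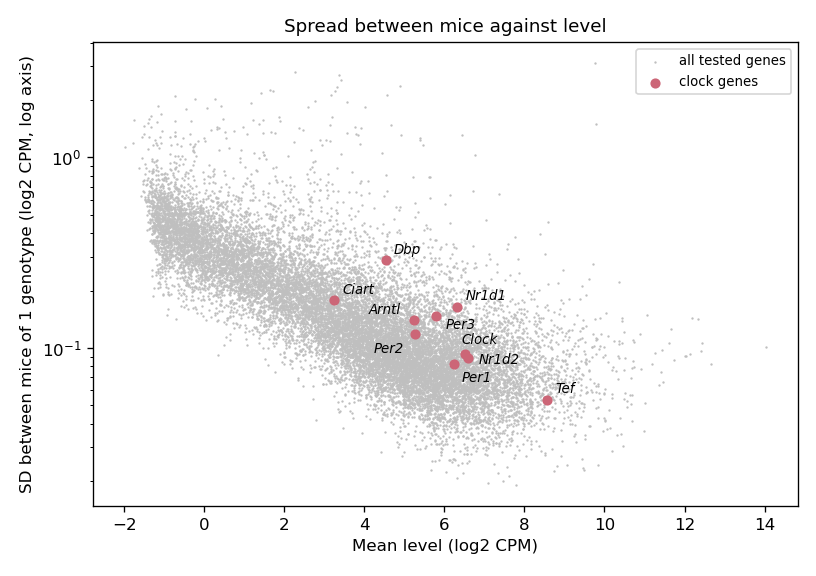
The SD between mice of 1 genotype (log2 CPM, logarithmic vertical axis) is plotted against the mean level (log2 CPM, horizontal axis) for all tested genes in grey and the 10 clock genes in red. Dbp at 0.288, Nr1d1 at 0.164 and Per3 at 0.148 lie in the upper part of the cloud at their level, and Tef at 0.053 lies below its middle.

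The mice differed in the same direction across several clock genes. The mean deviation from the gene's 10-mouse mean over the 8 genes other than Arntl and Clock was highest in WT 4, at 0.19 on the log2 scale, with 8 of 8 genes above their mean, while Arntl deviated by -0.29 in that mouse. Dp1Tyb 1 followed at 0.11 with 7 of 8 genes above their mean, and its Arntl was at its mean, with a deviation of -0.0008. WT 5 averaged 0.095 with 7 of 8 genes above. The low end held Dp1Tyb 4 at -0.13 with 3 of 8 genes above their mean and Dbp at -0.57, WT 1 at -0.10 with 2 of 8 above, and Dp1Tyb 2 at -0.098 with 0 of 8 above and Arntl at 0.11. Both ends of the order thus held mice of both genotypes.

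**Figure D4:**
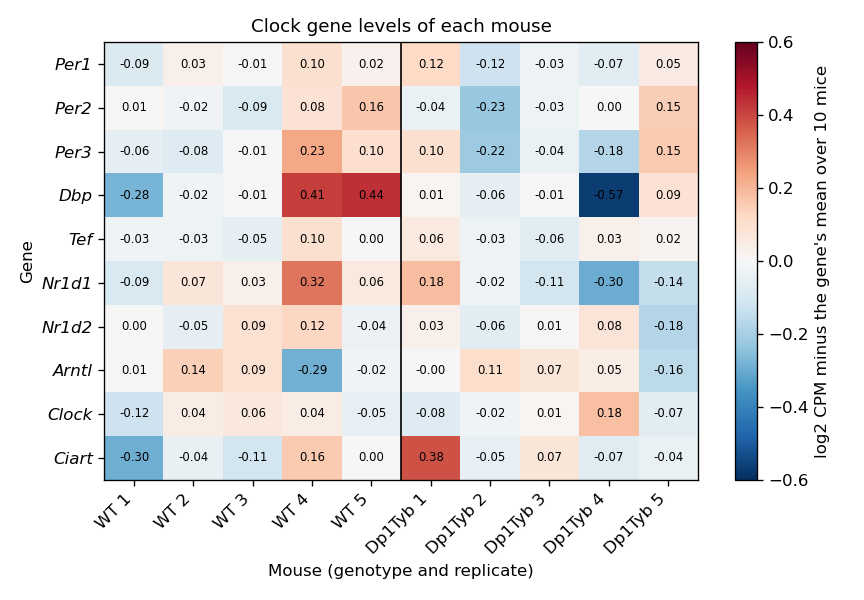
Each cell gives the log2 CPM of a clock gene (rows) in a mouse (columns) minus the gene's mean over 10 mice, red above and blue below it. WT 4 is red for the genes other than Arntl, which is at -0.29, and Dp1Tyb 4 has the lowest cell, Dbp at -0.57.

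Correlations among the members were computed over the 10 mice on log2 CPM for all 45 pairs, with permutation p-values adjusted over the 45. Pearson's r had a median of 0.198, beside -0.002 for the pairs of all tested genes. Its absolute value was 0.6 or more in 11 of 45 pairs (24.4%), where the background over all pairs of tested genes was 10.2%, and 0.8 or more in 2 pairs (4.44%), where the background was 1.26%. The 28 pairs among the 8 genes other than Arntl and Clock had a median r of 0.46, and 26 of them were positive. Arntl had a negative r with all 8 of these genes, with a median of -0.54. These r ran from -0.82 for Per3 to -0.08 for Nr1d2. For Nr1d2 and for Nr1d1 (-0.40) the sign changed when 1 mouse was left out. Clock had a median r of -0.13 with the same 8 genes, which was -0.38 without WT 1, -0.21 without WT 4, -0.22 without Dp1Tyb 2, -0.04 without Dp1Tyb 1 and 0.13 without Dp1Tyb 4, so it had no stable sign. In 15 of the 45 pairs r changed sign when 1 mouse was left out. The pairs share mice and genes, and the counts and medians are descriptions.

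No Pearson correlation passed the adjustment over the 45 pairs, although 9 pairs had an unadjusted permutation p under 0.05. The lowest adjusted p, 0.0529, was that of Per1 with Per3 (r = 0.84, permutation p = 0.00235; rho = 0.77, p = 0.0124, adjusted p = 0.131; r = 0.82 without the 2 mice farthest in Per1) and of Per3 with Arntl (r = -0.82, permutation p = 0.00169; rho = -0.83, p = 0.00448, adjusted p = 0.101; r = -0.72 without the 2 mice farthest in Per3). Per3 and Dbp had r = 0.75 (permutation p = 0.0117, adjusted p = 0.110) and rho = 0.90 (permutation p = 0.001, adjusted p = 0.045), the only pair past the threshold by rank, with r = 0.79 without the 2 mice farthest in Per3. Tef and Arntl had r = -0.77 (permutation p = 0.00931, adjusted p = 0.110; rho = -0.76, p = 0.0152, adjusted p = 0.131), with r = -0.61 without the 2 mice farthest in Tef. The other 5 pairs with an unadjusted p under 0.05 were Dbp with Nr1d1 (r = 0.74, rho = 0.53, r = 0.67 without the 2 farthest mice), Per1 with Ciart (r = 0.74, rho = 0.73, then r = 0.73), Per2 with Per3 (r = 0.72, rho = 0.58, then r = 0.57), Per1 with Nr1d1 (r = 0.67, rho = 0.60, then r = 0.74) and Per2 with Arntl (r = -0.65, rho = -0.73, then r = -0.80). Their permutation p-values ran from 0.0124 to 0.0462, and adjusted over the 45 pairs from 0.110 to 0.231. In Per3 and Arntl the same mice stood at the ends, WT 4 and Dp1Tyb 5 with much Per3 and little Arntl, and Dp1Tyb 2 with the least Per3 and more Arntl than all mice but WT 2.

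Not in every pair, but by the medians and counts that follow, the correlations were weaker without WT 4. Without it the median r of the 45 pairs was 0.048, the pairs with an absolute r of 0.6 or more fell from 11 to 7 and those of 0.8 or more from 2 to 1 (against 4 without Dp1Tyb 4), and the lowest adjusted p was 0.319. The 28 pairs without Arntl and Clock then had a median r of 0.36 with 20 positive, and Arntl had a median r of -0.32 with the 8 genes, 6 of them negative. Per3 with Arntl was -0.74 and Per3 with Dbp 0.65 without that mouse. Per2 with Arntl went the other way, from -0.65 to -0.73. With genotype means removed, so that only differences within genotype counted, the 28 pairs had a median r of 0.55 with 24 positive. Arntl had a median r of -0.54 with the 8 genes. In that setting no pair passed either, with a lowest adjusted p of 0.0552 (exact permutation within genotypes, 45 pairs) shared by Per3 with Arntl (r = -0.83), Nr1d1 with Ciart (r = 0.89) and Per1 with Ciart (r = 0.84). Nr1d1 with Ciart was weaker with genotype means kept (r = 0.58, permutation p = 0.0813, rho = 0.50).

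**Figure D5:**
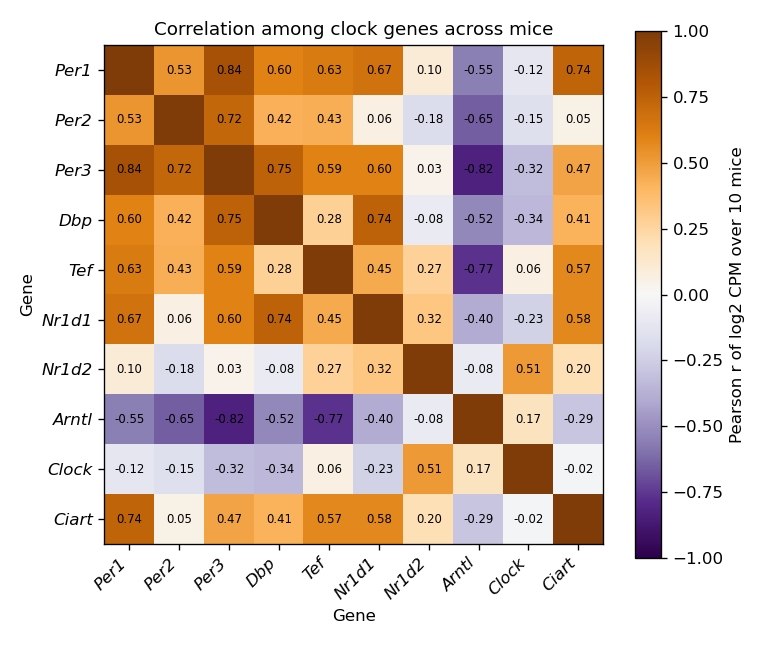
Pearson's r of log2 CPM over the 10 mice is shown for each pair of clock genes, from purple (negative) to orange (positive). Per1 with Per3 reaches 0.84. The row of Arntl is negative for the 8 genes other than Clock, from -0.82 for Per3 to -0.08 for Nr1d2. None of the 45 passes an adjusted p of 0.05.

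The tested genes outside the 10 with the nearest pattern were ranked by r over the 10 mice with genotype means removed. They were Trerf1, Fam131c and Fam20a for Per1, Raver2, Usp19 and Sipa1l3 for Per2, and Nlgn2, Dnm1 and Msto1 for Per3. For Dbp they were H2afy, a macroH2A histone, at 0.98, then Fbxl16 and Pgls, and for Tef they were Ctla4, Sympk and Sall1. Nr1d1 was nearest B4galt2, Cyp46a1 and Slc7a8, Nr1d2 nearest Maged2, Vps50 and Maged1, and Ciart nearest Tm7sf2, Ocstamp and Hdac5. Arntl was nearest Gm5105, Snapc5 and Tceal6, and Clock was nearest Eea1, Zfp148 and Dnajc13, the latter 3 all at 0.97. The top r of the 10 genes ran from 0.93 to 0.98, and each was chosen as the highest over all tested genes, so it is a description. The members were placed widely in these rankings of 17236 genes. Ciart ranked 5th for Nr1d1 and Nr1d1 12th for Ciart, whereas Nr1d1 ranked 9820th, Nr1d2 12875th and Ciart 6042nd for Per2, and Nr1d2 ranked 9480th for Per3.

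Beyond the 10, the other genes of the clock were read from the same fit. Of 28 further clock activators, repressors, receptors, kinases, ligases and outputs, 0 were called by edgeR, where 1.11% of all tested genes were called. An unadjusted p under 0.05 was found for 5 of the 28, where the background was 14.4%. Of the 28, 16 lay below 0, where the background was 51.3%, with a median log2 fold change of -0.03. The larger differences were -0.15 for Npas2 and 0.12 for Arntl2, relatives of Clock and Arntl, -0.17 for the repressor Bhlhe41 and -0.13 for Hlf, the PAR bZIP relative of Dbp. Among kinases, ligases and other regulators they were 0.13 for Fbxl21 and 0.06 for Timeless, and among outputs -0.28 for Pdk4, a mitochondrial kinase, and -0.14 for Noct, a phosphatase with daily rhythm. None of these passed the test. Each of the 28 was also correlated with Per3 and Arntl, and none of these 56 relations passed the adjustment over them (permutation, lowest adjusted p = 0.0935, Tspan4 with Per3).

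Genes that respond to hormone, activity or temperature were read in the same way, since these move with the state of a mouse at collection. Of 12 glucocorticoid targets 0 were called and 11 lay below 0, where 1.11% of all tested genes were called and 51.3% lay below 0. The larger differences were -0.89 for Plin4, a lipid droplet protein, and -0.28 for Pdk4, which is also among the clock outputs. Plin4 measured 11.7, 7.36, 4.12, 4.36 and 4.66 CPM in WT mice 1 to 5 and 2.8 to 4.29 CPM in Dp1Tyb mice, so WT 1 and WT 2 stood above the others. Of 10 immediate early genes 0 were called and 8 lay below 0, with -0.38 for Junb (edgeR adjusted p = 0.263) and 0.27 for Egr2, and Junb was called only without WT 1. Of 8 temperature-responsive genes 0 were called and 4 lay below 0, with a median log2 fold change of 0.016. The larger differences were -0.19 for the cold-induced Rbm3 and -0.16 for the heat shock gene Hspa1b. These values describe the groups, and their part in the clock genes' spread was not tested.

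The tissue was checked against marker genes. The summed level of 9 hippocampal neuron markers ran from 878 to 998 CPM in WT and from 972 to 987 CPM in Dp1Tyb mice. None of the 9 was called, but 4 had an unadjusted p under 0.05 (background 14.4%) and they lay on both sides of 0, with -0.49 for C1ql2 and -0.18 for Prox1, markers of dentate granule cells, and 0.16 for Cpne4 and 0.15 for Neurod6, which mark pyramidal cells. The part of these differences in the clock genes' values was not tested. Of 5 suprachiasmatic nucleus markers, Avp had at most 3 and Six6 at most 1 count in a library, Lhx1 had 2 to 21 and Prok2 3 to 14 counts, and only Vip was tested, which is also made by hippocampal interneurons and was called higher in Dp1Tyb mice (log2 fold change 0.43, edgeR adjusted p = 0.021). The summed level of 12 choroid plexus markers ran from 452 to 5677 CPM in WT and from 45.2 to 4041 CPM in Dp1Tyb mice, lowest in Dp1Tyb 1 and Dp1Tyb 4. All 12 lay below 0 and none was called, where 51.3% of all tested genes lay below 0 and 1.11% were called. The 12 largely rose and fell together over the libraries, so they are not 12 separate results. Of 5 astrocyte markers Gfap was called higher in Dp1Tyb mice (0.26, edgeR adjusted p = 0.0167), and the others, at 0.22 for Aqp4, 0.11 for Slc1a3, -0.0095 for Aldh1l1 and -0.08 for Gja1, were not called. Of the lists for blood, thalamus, oligodendrocytes, microglia and endothelium, none had a called gene, where 1.11% of all tested genes were called. All 5 endothelial markers lay below 0, and 3 of them had an unadjusted p under 0.05 (edgeR, background 14.4%). All 5 blood, 4 of 5 microglia, 4 of 6 thalamus and 1 of 5 oligodendrocyte markers lay below 0. The part of these differences in the clock genes' values was not tested. In bulk tissue, fewer cells of a type and less RNA per cell cannot be told apart.

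Of the libraries with the least choroid plexus, Dp1Tyb 1 had the highest Ciart and Dp1Tyb 4 the lowest Dbp. WT 4 and WT 5, which held other extremes such as the lowest Arntl and the highest Dbp, had high choroid plexus sums of 4386 and 5282 CPM. WT 3, with the highest sum of 5677 CPM, and Dp1Tyb 3, at 4041 CPM, had mean deviations over the 8 genes of only -0.020 and -0.026. Without Dp1Tyb 1 and Dp1Tyb 4 no member was called (lowest edgeR adjusted p = 0.437), Dbp had a log2 fold change of -0.13 and Ciart one of 0.04. The median r of the 45 pairs then rose to 0.44, that of the 28 pairs to 0.58, and Clock turned from a median r of -0.13 with the 8 genes to 0.34. With the choroid plexus level as a covariate Dbp had a log2 fold change of -0.10 and Nr1d1 one of -0.17.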

How the data were processed

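Hippocampal polyA RNA of 10 mice was sequenced from stranded libraries. Per the labels and the study's methods, the authors trimmed reads with Trim Galore, aligned them to GRCm38 with TopHat2 2.0.12, discarded reads with several alignments and made the deposited raw counts per gene with HTSeq; the strand setting and annotation release are not given in the sources used here. The authors' normalised values and their DESeq2 table of fold changes and p-values were not used.

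Symbols and positions came from GENCODE M21 (GRCm38). Groups came from the labels. Counts were fitted in R 4.3.3 with edgeR 4.0.16 (filterByExpr, TMM, quasi-likelihood F-test, genotype only, Benjamini-Hochberg over 17237 genes, threshold 0.05). CPM used TMM library sizes and log2 CPM a prior count of 2. No pair of the 45 library pairs agreed within sampling noise (smallest chi-square per degree of freedom 4.68). Correlation p-values were two-sided, from 100000 permutations, or exact over 14400 orders within genotypes. Alternatives were DESeq2 1.42.0, limma-voom 3.58.1, RLE factors, no filter, a replicate block, a choroid plexus covariate and each mouse left out; leaving out the 2 libraries lowest in choroid plexus markers was added after seeing the data. The scripts were tested on simulated data.

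The 10 members and the gene lists were chosen with earlier results of these data known. Named were the members, each list's called genes or else its 2 largest differences, the 3 nearest genes of each member, and genes that share exon bases with a member; a gene that this rule names is not reported here, and Tspan4 was named after its values were seen. Promoter windows came from RefSeq.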

Additional observations from a re-analysis of the deposited data

Results flagged for a closer look

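Dbp in Dp1Tyb 4 stood apart from its group. Its level was 3.965 on the log2 CPM scale, where the other 4 Dp1Tyb mice lay between 4.48 and 4.62, and the gap to the nearest of them was 0.782 of the group's range. This was 1 of 20 groups examined (10 genes in 2 genotypes), and chance flags about 1 in 20. The same library was among the lowest in choroid plexus markers, and the part of either in the other was not tested.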

How the results depend on the processing

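No member was called under any of the 17 alternatives, DESeq2 and limma-voom included, and the lowest adjusted p of a member ran from 0.234 to 0.567. The genes called over the whole table numbered 191, against 507 with DESeq2 and 315 with the replicate block, 105 to 218 with 1 mouse left out and 120 without the 2 libraries lowest in choroid plexus markers. Same-numbered mice did not deviate together throughout (correlations from -0.069 to 0.28), so the numbers are not taken to pair the mice; with the replicate block 0 members were called.

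Of the members' log2 fold changes, 15 of 170 changed sign, all close to 0. With the choroid plexus covariate Tef was -0.0093, Arntl -0.0060 and Clock -0.012. Without the 2 libraries lowest in choroid plexus markers Tef was -0.025 and Clock -0.025. With 1 mouse left out Per1 ran from -0.055 to 0.0077, Tef from -0.0088 to 0.031, Arntl from -0.039 to 0.065 and Clock from -0.037 to 0.033; Per2 from -0.10 (without Dp1Tyb 5) to -0.01 (without Dp1Tyb 2), Per3 from -0.12 (without Dp1Tyb 5) to -0.02 (without WT 4) and Nr1d2 from -0.08 (without Dp1Tyb 4) to -0.01 (without Dp1Tyb 5) kept their sign. The median r of the 45 pairs was 0.44 without those 2 libraries and 0.048 to 0.30 with 1 mouse left out. The members' median SD percentile was 29.5 without the filter on low counts, where more low genes are ranked. The called genes of the other lists numbered 0 to 1 with 1 mouse left out. The median r of the 28 pairs and of Arntl with the 8 genes kept its sign throughout, that of Clock did not (0.13 without Dp1Tyb 4), and by rank Per3 with Dbp passed. Depth limits Ciart most, which had the fewest reads.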
